A study of Homo sapiens with 6 samples.

Results

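The microRNAs described here are the 95 entries whose miRBase mature accession lies between MIMAT0004481 and MIMAT0004615, among 1212 on the array. The rule that picks them uses accession number alone and no measured value, but it was chosen with earlier results of these data known. The block is defined as a registration series made up almost wholly of minor, or passenger, arms of long-known microRNAs, running from let-7a-3p to miR-195-3p. Of its 135 accession numbers, 95 have a row in the table and 40 were not analysed here. One row carries 2 accessions, of which only MIMAT0004563 is in the block, and it was counted once.

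All samples were Huh7, an established line of human hepatocellular carcinoma cells grown in serum-supplemented medium. The 3 control samples received no metformin, and the 3 metformin samples received 10 mM metformin, a biguanide used against diabetes. Both lasted 72 h. The extracted RNA carried the dye Hy5 and was hybridised to a custom microRNA array in 1 colour, so each sample is 1 array. This is a single line in culture. The labels are silent on whether replicate arrays stem from separate cultures, and p-values therefore measure only the spread between these arrays, which may be technical.

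A microRNA precursor is a hairpin that Drosha and Dicer cut into a short duplex. One strand, the guide or major arm, is kept by an Argonaute protein and pairs with target messenger RNAs through its seed, the bases near its 5′ end. The other strand, the passenger or star arm, is mostly discarded and degraded, although some passenger arms accumulate and act as microRNAs in their own right. Strand choice depends on how firmly each end of the duplex is paired and on the base at the 5′ end of each strand, with uracil favoured by Argonaute. Because an arm pairs through its own seed, the passenger and guide of the same hairpin have different targets.

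The definition of the block names its first and last entries, and the sequences of both arms are shown so that their different seeds can be read. RefSeq sequences (GRCh38.p14) of both arms of these hairpins are given 5′ to 3′, with the seed (bases 2 to 8) in capitals.
hsa-let-7a-3p: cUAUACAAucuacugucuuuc
hsa-let-7a-5p: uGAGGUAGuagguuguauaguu
hsa-miR-195-3p: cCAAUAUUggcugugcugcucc
hsa-miR-195-5p: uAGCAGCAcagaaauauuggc
Both passengers begin with C and both guides with U. The let-7 microRNAs are known as repressors of growth-promoting genes, and miR-195-5p shares its seed with miR-15a-5p and miR-16-5p, which restrain the cell cycle. Among 2370 mature human sequences in the RefSeq table, the let-7a-5p seed is shared by 10 others and the let-7a-3p seed by 3, namely let-7b-3p, let-7f-1-3p and miR-98-3p. The seed of miR-195-5p is shared by 6 others and that of miR-195-3p by 1, miR-16-2-3p. In the genome, let-7a-3p lies on the plus strand within MIRLET7A1 at chr9:94176013-94176033 and within MIRLET7A3 at chr22:46112800-46112820. The miR-195-3p sequence lies on the minus strand within MIR195 at chr17:7017628-7017649.

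No table used here pairs the accessions with microRNA names. The 2 end members are therefore called by name, and the others by accession, with no role given. For the same reason the description of the block as passenger arms could not be checked against the data, the major arm of each hairpin could not be found among the probes, and the markers of hepatocytes and of other cell types could not be read. Instead, values of the block are set beside those of the 200 other probes with accession numbers under 1000, which are the earliest registered entries. Which of those are major arms was not determined.

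Values are processed linear intensities as the authors deposited them. Their background correction is not known, and different probes give different signal for equal amounts of RNA, so intensities do not rank the abundance of the microRNAs. Of the 570 values of the block, 11 are null, spread over 10 members. The other 85 members have a value on all 6 arrays, and they entered the test together with all 1038 such probes of the table. Median intensities of the block were between 22.8 and 24.9 per array, close to the medians of all probes, which were between 22.8 and 24.1.

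Most of the block lay in a narrow band of low intensity, and 7 members stood above it. Taking the geometric mean over the 6 arrays, 78 of the 85 members were between 9.59 and 40.2, and 7 were between 57.6 and 515. A boundary of 50, set after the values were seen, falls in the gap between MIMAT0004502 at 57.6 and MIMAT0004558 at 40.2. Such a mean of 50 or more was found for 8.24% of the block, for 38.3% of the 188 tested early-numbered probes and for 15.5% of all 1038 tested probes. Among the 765 tested probes outside both sets the share was 10.7%. The 260 tested probes with the highest means, 32.5 or more, held 13 of the 85 members (15.3%) and 94 of the 188 early-numbered probes (50%). They also held 153 of those 765 (20%). Median geometric means were 23.0 in the block, 32.3 in the early-numbered probes and 21.6 in the 765. Low intensity was thus not particular to the block. The brightest member had rank 38 among the probes tested. These shares compare different probes, and no test was made of them.

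**Figure D1:**
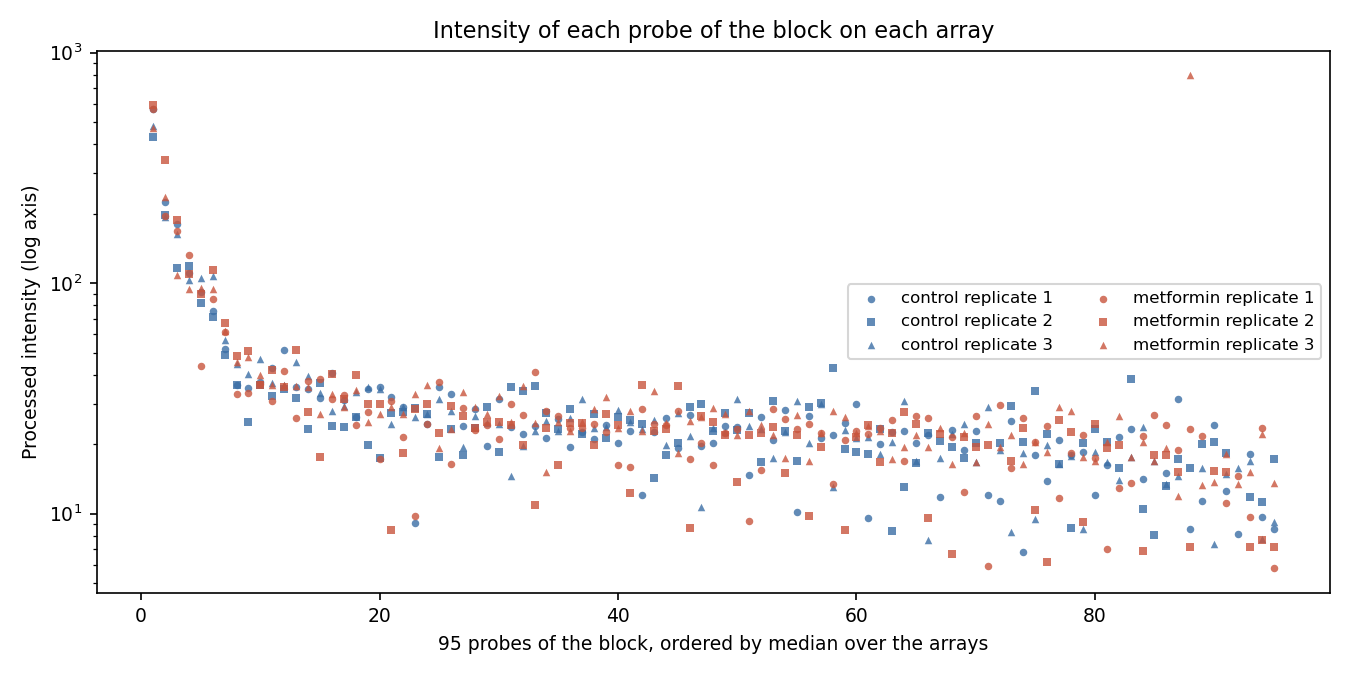
Processed intensity (log axis) of each of the 95 probes of the block on each of the 6 arrays, ordered by the median over the arrays. Colour gives the group and marker shape the replicate. The first 7 probes stand above a band that mostly lies between 10 and 50, and 1 value at the far right, 796.1 on metformin replicate 3, stands alone.

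The brightest member was MIMAT0004561. It measured 569.8, 429.8 and 481.5 on control replicates 1 to 3 and 566.6, 591.3 and 469.7 on metformin replicates 1 to 3. The groups overlapped, with means of 494 ± 70.8 and 543 ± 64.3 (SD, n = 3). The log2 difference, metformin minus control, was 0.14 with a 95% interval from -0.40 to 0.68, so 2-fold changes lay outside the interval. The difference was 0.04 when control replicate 2 was left out and 0.25 when control replicate 1 was left out.

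MIMAT0004609 followed with 225.7, 198.4 and 192.9 in control and 195.7, 341.1 and 236.9 with metformin. Its highest value was on metformin replicate 2, while metformin replicate 1 lay within the control range. The log2 difference of 0.29 (95% interval -0.33 to 0.91) was 0.07 without metformin replicate 2 and 0.47 without metformin replicate 1.

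MIMAT0004602 measured 180.3, 116.4 and 163.4 in control and 168.2, 187.7 and 107.9 with metformin. Each group had 1 low array, control replicate 2 and metformin replicate 3, and the log2 difference was -0.0032 (95% interval -0.70 to 0.70). Leaving out control replicate 1 gave 0.13, leaving out metformin replicate 3 gave 0.24, and leaving out control replicate 2 gave -0.19.

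MIMAT0004590 gave 110.3, 118.5 and 103.4 in control, against 132.6, 109.0 and 93.9 with metformin. The control values lay inside the range of the metformin values, and the log2 difference was 0.0020 (95% interval -0.54 to 0.54). MIMAT0004495 measured 75.7, 71.1 and 107.8 in control and 85, 114.4 and 94.5 with metformin. These groups overlapped as well, because control replicate 3 was higher than 2 of the 3 metformin arrays.

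MIMAT0004597 measured 91.7, 81.7 and 105.7 in control and 43.6, 89.5 and 95.2 with metformin. The low value on metformin replicate 1 stood apart from the other 5, and the log2 difference of -0.36 (95% interval -1.15 to 0.42) became -0.0033 without that array. Leaving out metformin replicate 3 gave -0.57. MIMAT0004597 is the 1 bright member whose interval still held a 2-fold decrease.

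MIMAT0004502 was the 1 bright member with groups that did not overlap. It measured 51.9, 48.9 and 56.4 in control and 61.6, 67.0 and 61.7 with metformin. The group means were 52.4 ± 3.77 and 63.4 ± 3.09 (SD, n = 3), and its spread within groups, an SD of 0.09 on the log2 scale, was the smallest in the block. The log2 difference was 0.28 (SE 0.21, 95% interval -0.21 to 0.76), or 1.21-fold, with a limma unadjusted p of 0.224 and an adjusted p of 0.991.

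Below the gap came MIMAT0004558, with 36.2, 36.3 and 44.4 in control and 33.0, 48.5 and 45.3 with metformin. MIMAT0004553 measured 51.3, 34.9 and 36.2 in control and 41.4, 35.3 and 36.2 with metformin. MIMAT0004518 measured 37.1, 36.2 and 46.7 in control and 36.5, 36.3 and 39.9 with metformin. In each of these 3 the groups overlapped, and the log2 differences were 0.10, -0.10 and -0.08. The remaining 75 tested members had geometric means between 9.59 and 37.7, with single values between 5.80 and 51.3.

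No microRNA of the block passed the test for a change with metformin. By limma, 0 of 85 members had an adjusted p under 0.05 in either direction, and the lowest adjusted p was 0.991. Over all 1038 probes 0 (0%) passed. At an unadjusted p under 0.05 there was 1 member (1.18%), against 2.7% of all probes tested. That member was higher with metformin, as were 1.64% of all probes, and 0 members were lower, against 1.06% of all probes. The metformin values lay wholly above the control values for 6 members and wholly below for 1, together 8.24% of the block. Over all tested probes the groups did not overlap in 7.61%, with 4.43% higher and 3.18% lower. The share of the block without overlap in either direction was thus near that of the table. By direction it was 7.06% higher and 1.18% lower in the block, and no test was made of this split.

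The differences were centred on 0. Of the 85 members, 42 had a higher and 43 a lower mean log2 value with metformin, where 52.9% of all probes had a higher one. The median log2 difference was -0.0032 in the block, 0.07 in the early-numbered probes and 0.03 in all probes. The 25th and 75th percentiles of the members were -0.21 and 0.19, and the extremes were -0.72 and 0.75. A difference of more than 1.5-fold in either direction was seen in 9 members (10.6%), against 11% of all probes, and the brightest of these 9 had a geometric mean of 23.3. A difference of more than 2-fold was seen in 0 members and in 8 probes (0.771%) of the table.

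**Figure D2:**
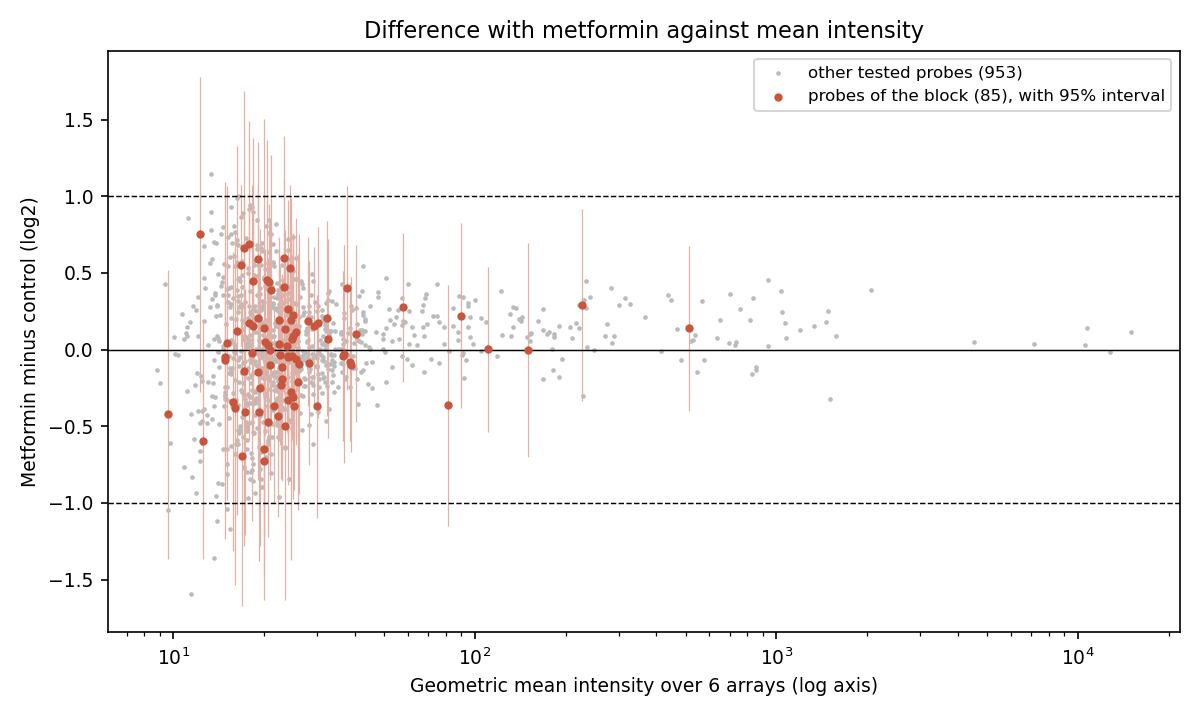
Log2 difference between metformin and control means (vertical axis) against geometric mean intensity over the 6 arrays (log axis) for 85 tested members with 95% limma intervals and for the other tested probes as grey points. Dashed lines mark a 2-fold change in either direction. Members lie between -0.72 and 0.75, spread widest at low intensity.

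Among the differences above 0, the smallest unadjusted p belonged to MIMAT0004571. Its values were 15, 13.2 and 13.5 in control and 24.2, 17.9 and 19.3 with metformin, and the groups did not overlap. The log2 difference was 0.55 (SE 0.23, 95% interval 0.02 to 1.08), or 1.46-fold, with a limma unadjusted p of 0.0434 and an adjusted p of 0.991. When single arrays were left out, the limma unadjusted p ran from 0.0408 to 0.119, and in 5 of the 6 fits the interval included 0. It also did so with the replicate number as a block (limma unadjusted p = 0.0758) and with trend and robust settings (limma unadjusted p = 0.237). In the remaining fits on all 6 arrays that held this probe, the limma unadjusted p ran from 0.0300 to 0.0496. The limma adjusted p in those fits was 0.943 or more. MIMAT0004568 came next with 23.9, 18 and 19.5 in control and 28.6, 26.4 and 33.6 with metformin. All 3 metformin arrays were again above all control arrays, and the log2 difference was 0.53 (SE 0.23, 95% interval -0.01 to 1.07).

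Among the differences below 0, the smallest unadjusted p belonged to MIMAT0004593, with 26.9, 29.1 and 21.8 in control and 17.3, 8.70 and 25.2 with metformin. Its groups overlapped, and the lowest value by far was on metformin replicate 2. The log2 difference was -0.72 (SE 0.39), and -0.30 without that array. MIMAT0004589 measured 26.6, 29.1 and 20.3 in control and 24.6, 9.80 and 17.0 with metformin. It too was lowest on metformin replicate 2, and its log2 difference of -0.65 (SE 0.36) was -0.29 without that array.

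The 1 member that was lower on every metformin array than on every control array, singled out after its values were seen, was MIMAT0004564. It measured 29.0, 27.6 and 28.9 in control and 21.6, 18.3 and 27.1 with metformin. The highest metformin value was close to the lowest control value, and the log2 difference was -0.37 (SE 0.24, limma adjusted p = 0.991).

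Of the 2 end members, miR-195-3p measured 12, 24.4 and 23.2 in control and 28.5, 36.2 and 22.9 with metformin. The value on control replicate 1 was low, and metformin replicate 3 lay within the control range. The log2 difference was 0.60 (SE 0.34, 95% interval -0.19 to 1.39, limma adjusted p = 0.991). It was 0.27 without control replicate 1 and 0.78 without control replicate 2. The other, let-7a-3p, measured 22.0, 42.9 and 13 in control and 13.5 and 27.9 on metformin replicates 1 and 3, with a null on metformin replicate 2. Its control values alone covered the range of its metformin values, and for want of a value it was not in the fit of all 1038 probes. In a fit of the 1200 probes with at least 2 values in each group, its log2 difference was -0.25 (95% interval -1.61 to 1.11), with the missing array dropped for that probe.

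How far a change could be bounded depended on the spread between arrays, which was larger for dim members. The SD within groups had a median of 0.28 on the log2 scale among the 7 members with a mean of 50 or more and of 0.38 among the other 78. The 95% interval, not adjusted for the number of probes, left no room for 2-fold changes of intensity in 6 of the 7 and in 42 of the 78. That makes 48 of 85 members (56.5%), against 54.9% of all probes and 64.4% of early-numbered probes. Grouped by intensity, the block was above the table in some groups and below it in others. With means of 18.03 or lower, 12.5% of 16 members and 8.46% of all probes met this condition. With means from 18.06 to 22.50 it was met by 39.1% of 23 members and 46.7% of all probes, and with means from 22.51 to 32.49 by 78.8% of 33 members and 76.4% of all probes. Above that it was met by 84.6% of 13 members and 88.1% of all probes. Whether the dim members lay above background was not determined, so these bounds hold for intensity and may not hold for the amount of microRNA.

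**Figure D3:**
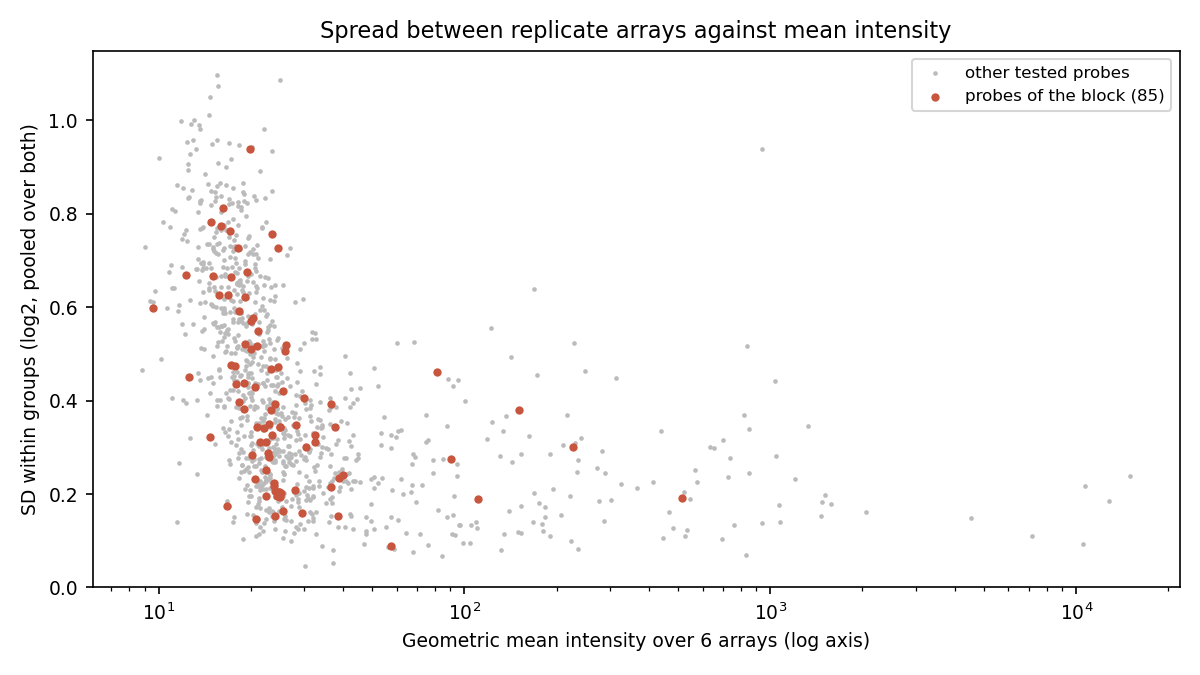
SD between replicate arrays, pooled over both groups on the log2 scale (vertical axis), against geometric mean intensity (log axis) for the 85 tested members and the other tested probes. The median SD is 0.28 for members with a mean of 50 or more and 0.38 for the other members, and the members lie within the cloud of the table.

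The order of the dim members by intensity was only partly repeated from array to array. Over the 78 dim members, Spearman correlations between pairs of arrays ran from 0.21 (control replicate 2 with metformin replicate 2) to 0.57 (control replicate 3 with metformin replicate 2). Over all 85 members they ran from 0.39 to 0.67. Pairs of arrays of the same group had a mean Spearman correlation of 0.53 over 6 pairs, and pairs from different groups 0.54 over 9 pairs. These correlations are across probes of the same arrays and describe these arrays only. Within single dim probes, the highest of 6 values was 1.99-fold the lowest in the median member and 3.85-fold at most. For the 7 bright members the median was 1.61-fold.

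Very low values came and went in the same probe. In all, 36 values of the block, from 26 members, were under 10, a limit set after the values were seen, and 23 of these 26 members also had a value of 20 or more on another array. The arrays differed in such values. Metformin replicate 2 had 13 of them among 90 measured members (14.4%) and 5 nulls, and metformin replicate 3 had 0 of 95 and 0 nulls. The control arrays had 7, 3 and 7. Over all probes the share under 10 was also highest on metformin replicate 2 (13.9%) and lowest on metformin replicate 3 (3.80%). The part of these values in the differences of dim members was not tested beyond leaving out each array.

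The block was also summarised per array, by the median deviation of its 85 tested probes from their 6-array means. This level differed between the groups by an amount similar to the spread between arrays. It was -0.01, -0.05 and 0.06 on the control arrays and 0.04, 0.04 and 0.13 on the metformin arrays, on the log2 scale. The group means were 0.0015 ± 0.0543 and 0.068 ± 0.051 (SD, n = 3), and control replicate 3 was above 2 of the metformin arrays. The median over members of the difference between groups was -0.0032, of the opposite sign to the difference of these levels, so neither direction is given.

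The level of the 7 bright members was -0.0044, -0.24 and -0.03 on the control arrays and 0.10, 0.22 and 0.06 on the metformin arrays, without overlap, and the difference was not tested because the 7 were picked by their values. Their median log2 difference was 0.14, with 5 of 7 above 0, MIMAT0004590 among them at 0.0020. With single arrays left out the median ran from 0.05 (without control replicate 2) to 0.24 (without metformin replicate 3). Leaving out metformin replicate 2 gave 0.07. It was -0.03 within the last 3 arrays deposited, where only 1 control array is present, and 0.21 within the first 3. The early-numbered probes had levels, over all 188 tested, of -0.07, -0.14 and 0.13 in control and -0.04, 0.08 and 0.13 with metformin. Their groups overlapped. Of these 188, 72 had a mean of 50 or more. The level of those 72 alone was not computed, so no set of like brightness stands beside the 7.

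**Figure D4:**
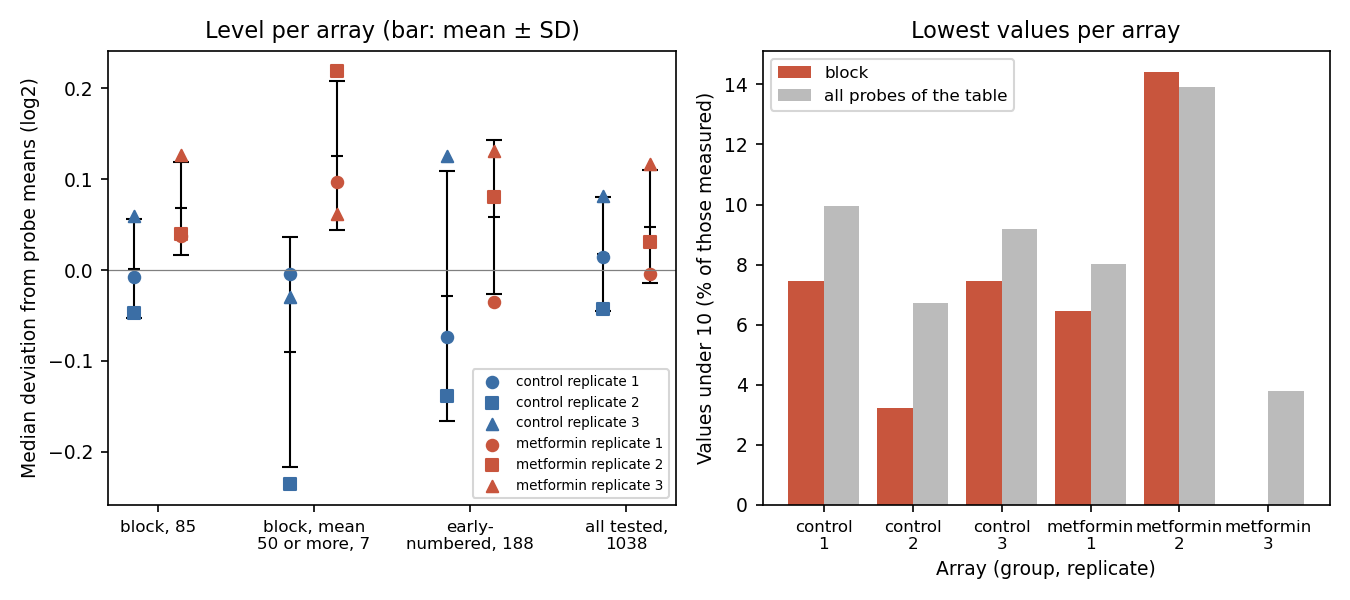
Left, level per array (median deviation from probe means, log2) for the block, its 7 bright members, the early-numbered probes and all tested probes, with points for single arrays and bars for the group mean ± SD over 3 arrays. Right, percent of measured values under 10 on each array in the block and in all probes of the table, highest on metformin replicate 2 (14.4% and 13.9%) and lowest on metformin replicate 3 (0% and 3.80%).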

How the data were processed

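One deposited table holds the intensity of each probe on 6 arrays, with no column left out. It holds values the authors had processed, on a linear scale as judged from the values themselves. On control replicate 1, 8 members of the block had values with more than 1 decimal, and the reason is not known. A refit without all such probes kept 864, of which 77 in the block, and 0 passed the threshold. The labelling kit is given per the labels' protocols, while scanner, background and scaling steps are not stated in the sources used here. Groups were taken from the sample titles. Intensities were converted to log2 without a pseudocount. Probes with 6 values (1038, of which 85 in the block) were fitted with limma 3.58.1 in R 4.3.3 (lmFit, eBayes), metformin against control, without covariates, two-sided, with Benjamini-Hochberg adjustment over all 1038 at 0.05. The fit was also run on simulated data with independent normal noise and known changes. These data had no nulls and no differences between arrays, so that run cannot show how the fit does on the real values. With 3 arrays per group, their number limits the precision.

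The members, lists, comparisons and alternatives were chosen with earlier results of these data known. Named members are the 10 with the highest mean, 2 per direction with the smallest p, and the ends of the block. A planned fit of the balance between both arms of each hairpin, and the planned groups by family, liver and cell type, were not run, because the accessions are not paired with names in the sources used here. Shared replicate numbers were not treated as pairs: for numbers 1, 2 and 3, deviations from the group means correlated with r of 0.01, -0.27 and -0.02 over all probes. Over the tested members of the block, r was 0.19, -0.19 and -0.10. Figures used Python 3.11.15 and matplotlib 3.10.9.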

Additional observations from a re-analysis of the deposited data

Results flagged for a closer look

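One value of the block, on a probe outside the fit because it has a null on control replicate 3, stood far above the rest. MIMAT0004605 measured 8.60 and 15.7 on control replicates 1 and 2, and 23.2, 7.20 and 796.1 on metformin replicates 1 to 3. It drew attention because it is a value in data that the comparison did not use, above the level in the control arrays. The value of 796.1 was 34.3 times the next highest value of the same probe. Over all probes of the table that was the largest such ratio, and the next largest was 2.66. In the fit of probes with at least 2 values in each group, its log2 difference was 2.14 (95% interval -2.19 to 6.46, limma adjusted p = 0.990), carried by that 1 array. Whether 796.1 is a faulty or misplaced entry of the table was not tested, so neither it nor the fitted difference can be read as a level of this microRNA.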

How the results depend on the processing

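Of 18 alternatives (15 planned, 3 added), 16 kept at least 5 arrays; each gave 0 members and 0 probes of the table past the threshold by limma, as in the reported fit, and the lowest adjusted p of any member over them was 0.825. The other 2, within the first 3 or the last 3 arrays deposited, also gave 0, but with 3 arrays each that says nothing about stability. At an unadjusted p under 0.05 the 18 gave between 0 and 3 members, and between 10 and 50 probes of the table. With the replicate block, members past the threshold were 0, members at an unadjusted p under 0.05 were 0, and the interval excluded a 2-fold change for 41 members, against 48 without it. Leaving out single arrays gave 33 to 47 for that number, and members past the threshold were 0 each time. It was 0 within the first 3 and 9 within the last 3 arrays deposited, where each fit has a single array in 1 group, assumed to vary like the other. The median log2 difference of the block, -0.0032, became 0.074 without metformin replicate 1 and -0.043 without metformin replicate 3, the extremes when leaving out single arrays, and was 0.0031 with deposit order as a block.

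Of 15 named members refitted, 7 changed sign in 17 of 266 refits, none with a call. MIMAT0004590 was -0.16 after quantile normalization, -0.0010 with centring on the 75th percentile, -0.046 without control replicate 3 and -0.031 within the last 3 arrays deposited, and single arrays left out gave -0.13 to 0.12. MIMAT0004602 was 0.0080 with the deposit-order block, 0.13 and 0.055 without control replicates 1 and 3, -0.19 to 0.24 over the single arrays left out, and 0.22 within the first 3 arrays. MIMAT0004558 was -0.029 with the deposit-order block, -0.0045 to 0.27 over the single arrays left out (lowest without metformin replicate 2) and -0.14 within the first 3 arrays. MIMAT0004553 ranged from -0.20 to 0.079 over the single arrays left out (highest without control replicate 1), MIMAT0004518 from -0.15 to 0.034 (highest without control replicate 3), MIMAT0004609 was -0.11 within the first 3 arrays, and MIMAT0004495 was -0.052 within the last 3. The cause was not tested. The alternatives for the balance of arms were not run because names were lacking. Having 3 arrays per group limits the precision.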
